A study of Mus musculus with 6 samples.

Results

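The classical type II cadherins are described here in the neocortex of newborn wild type mice and of mice with a conditional knockout of the transcription factor Tcf4. The 9 genes (Cdh6, Cdh7, Cdh8, Cdh10, Cdh11, Cdh12, Cdh18, Cdh20 and Cdh22) were taken by symbol from a deposited table of 15703 genes, and all 9 were listed in it. RNA was sequenced from whole neocortex at postnatal day 0 in 3 wild type (WT) mice and 3 conditional knockouts (cKO) of genotype Tcf4 f/f; Emx1Cre/+, all of strain C57BL/6. The Emx1 promoter drives Cre in progenitors of the dorsal telencephalon, which give rise to cortical excitatory neurons and glia. Interneurons, microglia and vessel cells arise outside this lineage. The labels name no Cre or floxed allele in the WT group, so Cre and loss of Tcf4 cannot be told apart. The titles carry a different code for each of the 6 libraries, and nothing says how the litters were arranged. Each p-value rests on the spread between these libraries.

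Classical cadherins are transmembrane proteins that hold cells together through calcium-dependent binding of their outermost extracellular repeats, while the cytoplasmic tail recruits catenins that link to actin. Type II members dock through a pair of tryptophans in the outermost repeat, where type I members such as N-cadherin use a single one. By binding preference they fall into groups that hold cadherins 8, 11 and 24, cadherins 6, 9 and 10, and cadherins 7, 12, 18, 20 and 22. In the developing cortex they are known for expression restricted to certain areas and layers, so that combinations of them distinguish neuron populations. Tcf4 is an E-protein, a basic helix-loop-helix factor that binds the E-box, whose letters are CANNTG.

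Each of the 9 genes was called in the cKO neocortex at an adjusted p under 0.05, 4 higher and 5 lower. The calls of Cdh8 and Cdh10 were lost in some alternative fits. The members were chosen with earlier results of these data known, so their count beside that of all genes is no test of the family. Cdh6, Cdh7, Cdh10 and Cdh18 rose, by 1.26-fold (Cdh10) to 2.04-fold (Cdh18). Cdh8, Cdh11, Cdh12, Cdh20 and Cdh22 fell, by 1.23-fold (Cdh8) to 4.02-fold (Cdh22). Of all 15703 genes, limma called 15.8% at an adjusted p under 0.05, 7.22% higher and 8.59% lower. Leaving out WT 1, cKO 1 or cKO 2 lowered these calls from 1134 genes higher and 1349 lower to between 544 and 578 higher and between 830 and 839 lower, with 3 members called higher and 4 or 5 lower in those fits. WT and cKO libraries did not overlap in any of the 9 genes, nor in 37.3% of all genes. The median size of the log2 change was 0.58 for the 9 genes, 0.13 for all genes and 0.41 for all called genes. Fold changes are ratios of mean FPKM (fragments per kilobase of exon, relative to library size), log2 changes are on the log2(FPKM + 1) scale, and each adjusted p comes from limma (n = 3 per group) after Benjamini-Hochberg adjustment across the whole table.

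**Figure D1:**
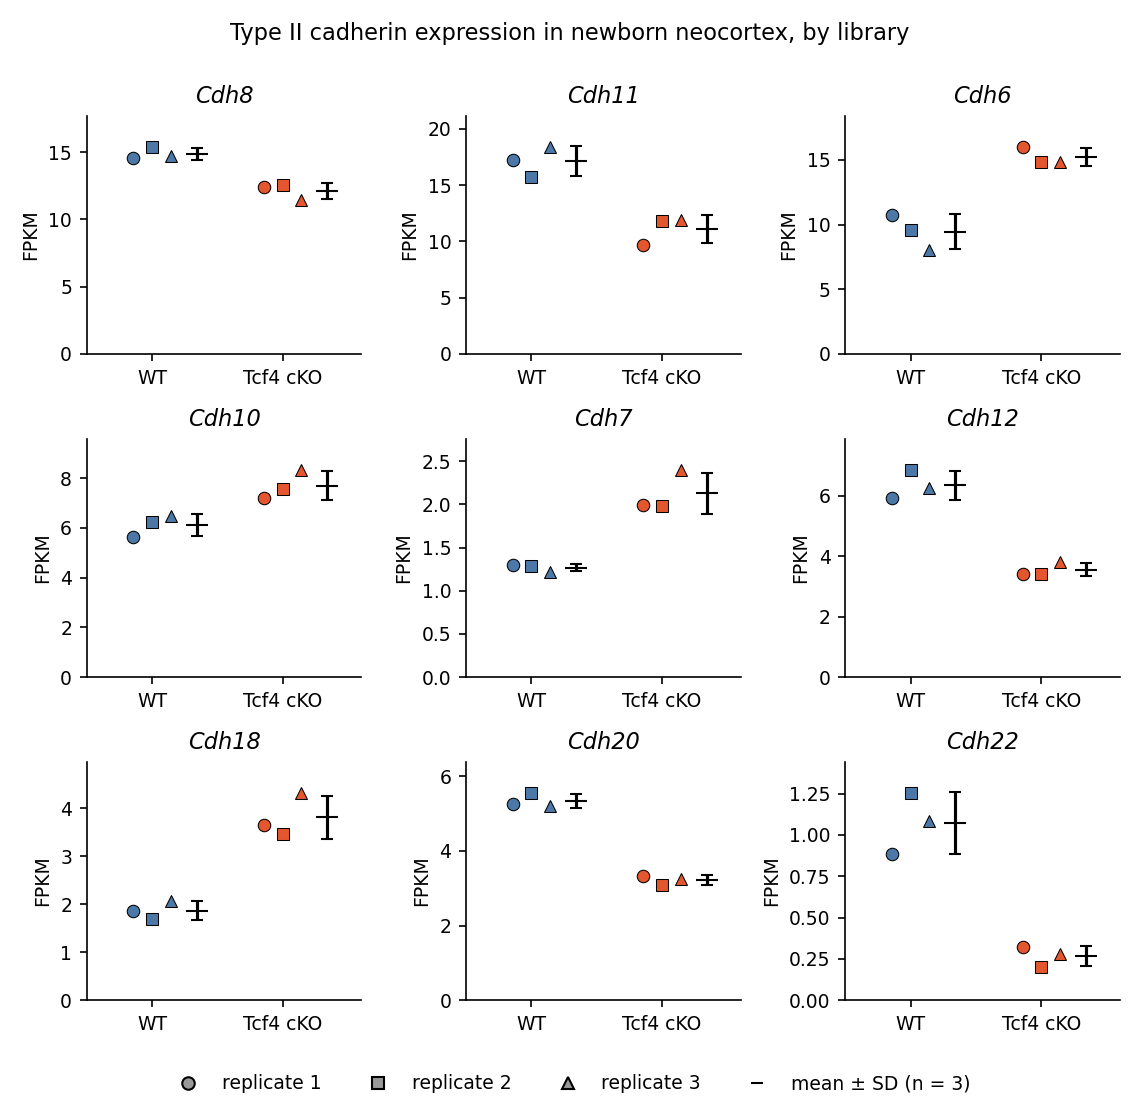
Expression of the 9 type II cadherins. Each panel plots 1 gene, with FPKM on a linear axis from 0 and 1 point per library (blue WT, red cKO; circle, square and triangle for replicates 1, 2 and 3), and the black mark gives the mean ± SD of 3 libraries. In every panel the blue and red points are separate; relative to their level they lie closest in Cdh10, where the highest WT library is at 6.46 FPKM and the lowest cKO library at 7.18 FPKM.

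Reads recovered from the FPKM values numbered 25.3 to 28.8 M (1000000 reads) per library in listed genes. In each library this sum exceeded the library size used for the recovery (23.2 to 26.1 M). The recovered reads are therefore approximate and may be too high, and the reason was not tested. Tcf4 itself fell from 74.1 ± 2.45 to 57.4 ± 2.76 FPKM (SD, n = 3; limma adjusted p = 0.00411), a value that counts all exons and all cells and so does not isolate the floxed part. The sex-linked genes Xist (0.433 FPKM in WT 1, 0.407 FPKM in cKO 3) and Ddx3y (16.1 and 14.7 FPKM there) marked these libraries as male. The others read as female, and sex was not a term in the fit. Of the cell type marker lists, 6 of 10 radial glia and astrocyte genes fell (summed level 570 to 597 FPKM in WT and 350 to 452 FPKM in cKO), as did 4 of 10 interneuron genes (124 to 134 and 97.8 to 110 FPKM) and 3 of 7 microglia genes (20.5 to 23.8 and 12.2 to 17.7 FPKM). In the radial glia and astrocyte list, Fabp7 made up most of the sum (means 454 FPKM in WT and 312 FPKM in cKO). Another 3 of its genes, Sox2, Pax6 and Hes5, had higher cKO means without a call. Pan-neuronal genes (2 of 6 fell; 1637 to 1651 and 1519 to 1542 FPKM) and oligodendrocyte lineage genes (2 of 7 fell; 62.6 to 71.2 and 47.7 to 55.7 FPKM) also had lower sums without overlap. Of 10 projection neuron genes, 2 fell and none rose, while their summed level was 640 to 687 FPKM in WT and 691 to 735 FPKM in cKO. The largest part of this sum was Neurod6 (means 296 and 351 FPKM, not called), and 4 of the 10 had a higher cKO mean. None of 7 endothelial genes was called. Of genes taken as markers of regions next to the neocortex, 1 of 7 listed striatal genes rose and 1 fell. Of 5 thalamic genes, 2 fell (sums 8.38 to 9.67 and 5.62 to 5.83 FPKM). They were Prkcd (5.55 to 3.37 FPKM) and Ntng1 (1.71 to 0.730 FPKM), while 2 others, Tcf7l2 and Lhx9, had higher cKO means without a call. Of 6 hippocampal genes, 1 rose and 5 were not called (sums 52.5 to 61.2 and 74.0 to 84.1 FPKM). The gene that rose was Neurod1 (7.82 to 32.0 FPKM), and 3 of the 6 had a higher cKO mean. The part of these shifts in the cadherin changes was not tested, and in whole tissue, fewer cells of a type and less RNA per cell cannot be told apart.

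Promoter sequence is shown for Cdh6, Cdh10 and Cdh20, a pair that rose and a gene that fell, because Tcf4 binds E-boxes and these 3 windows hold no annotated exon. RefSeq windows (build GRCm38.p6) were found for 8 of the 9 genes, and Cdh11 was not matched. Each sequence is the 250 bases before the RefSeq start, 5′ to 3′ on the gene's strand, in lower case with every CANNTG in capitals. The Cdh6 window is chr15:13173676-13173925 (minus strand), that of Cdh10 is chr15:18820079-18820328 (plus strand, inside the span that GENCODE gives the gene), and that of Cdh20 is chr1:104768270-104768519 (plus strand).
Cdh6: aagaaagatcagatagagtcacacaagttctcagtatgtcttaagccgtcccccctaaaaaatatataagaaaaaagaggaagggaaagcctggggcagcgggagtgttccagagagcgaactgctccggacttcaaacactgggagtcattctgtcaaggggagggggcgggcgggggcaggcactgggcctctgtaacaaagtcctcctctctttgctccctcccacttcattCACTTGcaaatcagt
Cdh10: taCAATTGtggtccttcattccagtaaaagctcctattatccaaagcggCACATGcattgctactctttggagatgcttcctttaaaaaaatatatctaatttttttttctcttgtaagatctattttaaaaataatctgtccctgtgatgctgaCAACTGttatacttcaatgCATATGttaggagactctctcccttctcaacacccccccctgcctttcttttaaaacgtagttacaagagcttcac
Cdh20: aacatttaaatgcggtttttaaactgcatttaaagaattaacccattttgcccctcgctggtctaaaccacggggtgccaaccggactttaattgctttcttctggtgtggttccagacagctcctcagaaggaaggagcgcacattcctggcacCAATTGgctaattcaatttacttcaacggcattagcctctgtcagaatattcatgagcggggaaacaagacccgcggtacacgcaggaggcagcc

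The Cdh6 window held 1 E-box, CACTTG, ending 10 bases before the start. That of Cdh20 also held 1, CAATTG, and that of Cdh10 held 4. Over the 10 windows of the 8 matched genes, which include 3 alternative starts of Cdh7, 7 windows held a CANNTG, and those of Cdh18 and Cdh22 had none. Of all 32851 windows of this length, 66.2% held one. The form CAGCTG was present in 1 of the 10 windows (Cdh12; 13% of all windows), and CAGGTG, read on both strands, in 2, both of Cdh7 (17.2% of all windows). CANNTG and CAGCTG read the same on either strand, and every CAGCTG or CAGGTG is also counted as a CANNTG. A match describes letters in these windows and not a bound site.

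Cdh11 and Cdh8, which share a binding group, were the most abundant members in WT, and both fell. Cdh11 (ENSMUSG00000031673, mm10 chromosome 8, 102632095 to 102785642, minus strand), also known from mesenchymal cells, was at 17.2, 15.7 and 18.4 FPKM across the WT mice and 9.69, 11.8 and 11.9 FPKM across the cKO mice. Every cKO library lay under every WT library, with cKO 1 lowest. The mean dropped from 17.1 ± 1.34 to 11.1 ± 1.25 FPKM; the log2 change was −0.58 with an SE of 0.0903 (limma adjusted p = 0.00242). Since Cdh11 is also a mesenchymal gene, the fibroblast list stands beside it. Of 9 meningeal and fibroblast genes 5 were listed, each with a mean under 1 FPKM and none called, with a summed level of 2.39 to 2.82 FPKM in WT and 2.23 to 2.91 FPKM in cKO.

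Cdh8 (ENSMUSG00000036510, chromosome 8, 99024471 to 99416471, minus strand), a cadherin known for its patterned expression across cortical areas, was at 14.5, 15.4 and 14.7 FPKM across the WT mice and 12.4, 12.5 and 11.4 FPKM across the cKO mice. The groups were separate, but the difference was the smallest relative to WT among the members that fell. Its log2 change was −0.28 (SE 0.0657, limma adjusted p = 0.0190), from 14.9 ± 0.448 to 12.1 ± 0.598 FPKM. The call was lost without WT 1, cKO 2 or cKO 3 (limma adjusted p = 0.0548, 0.0526 and 0.0691). Cdh11 and Cdh8 lie 3.22 Mb apart on chromosome 8, with 2 listed genes between them. The ratio of Cdh8 to Cdh11 was 0.843, 0.980 and 0.802 in WT and 1.28, 1.06 and 0.962 in cKO, where the values of WT 2 and cKO 3 overlap.

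Cdh6 and Cdh10, of another binding group, rose. Cdh6 (ENSMUSG00000039385, chromosome 15, 13028701 to 13173675, minus strand), a marker of particular cortical areas and of several developing organs, was at 10.8, 9.61 and 8.04 FPKM across the WT mice and 16.0, 14.8 and 14.9 FPKM across the cKO mice. The WT libraries varied more than the cKO libraries, and even the highest of them was well under the lowest cKO library. The mean rose from 9.47 ± 1.36 to 15.2 ± 0.685 FPKM, or 1.61-fold, and the log2 change was 0.64 with an SE of 0.0944 (limma adjusted p = 0.00180). This gain of 5.76 FPKM was close in size to the loss of 5.99 FPKM in Cdh11.

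Cdh10 (ENSMUSG00000022321, chromosome 15, 18818947 to 19014236, plus strand), a close relative of Cdh6, was at 5.62, 6.24 and 6.46 FPKM across the WT mice and 7.18, 7.57 and 8.33 FPKM across the cKO mice. The groups were separate by a small margin. The mean rose 1.26-fold, from 6.11 ± 0.436 to 7.69 ± 0.584 FPKM (log2 change 0.29, SE 0.0807, limma adjusted p = 0.0373). Leaving out WT 1, cKO 1, cKO 2 or cKO 3 ended the call (limma adjusted p of 0.0559 to 0.139), as did a correction for exon length (limma adjusted p = 0.0914).

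The remaining 5 members form the binding group of cadherins 7, 12, 18, 20 and 22, and here Cdh18 and Cdh7 rose while Cdh12, Cdh20 and Cdh22 fell. Cdh18 (ENSMUSG00000040420, chromosome 15, 22549022 to 23474418, plus strand), a cadherin of the nervous system, was at 1.86, 1.68 and 2.07 FPKM across the WT mice and 3.66, 3.46 and 4.32 FPKM across the cKO mice. It had the largest relative rise of the 9 genes, 2.04-fold, from 1.87 ± 0.194 to 3.81 ± 0.451 FPKM. Its log2 change was 0.74 (SE 0.0972, limma adjusted p = 0.000960). The call held without each library in turn, with a limma adjusted p of at most 0.00564 (without cKO 1).

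Cdh7 (ENSMUSG00000026312, chromosome 1, 109982431 to 110140157, plus strand), known from neural crest and subsets of neurons, was low in both groups. It was at 1.29, 1.29 and 1.22 FPKM across the WT mice and 1.996, 1.984 and 2.40 FPKM across the cKO mice. The WT libraries lay close together and cKO 3 was the highest. The mean rose 1.68-fold, from 1.27 ± 0.0436 to 2.13 ± 0.236 FPKM (log2 change 0.46, SE 0.0871, limma adjusted p = 0.00666).

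Cdh12 (ENSMUSG00000040452, chromosome 15, 20449265 to 21589533, plus strand), a neuronal cadherin, went the other way. It was at 5.93, 6.86 and 6.24 FPKM across the WT mice and 3.42, 3.42 and 3.80 FPKM across the cKO mice, with no overlap. The mean fell from 6.34 ± 0.471 to 3.55 ± 0.215 FPKM, which is 55.9% of WT (log2 change −0.69, SE 0.0812, limma adjusted p = 0.000510). An antisense gene shares 198 bases, or 3.14%, of the Cdh12 exon length, and an antisense gene shares 23 bases of Cdh8. Because the labels do not say whether strand was used, reads from these stretches cannot be separated.

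Cdh20 (ENSMUSG00000050840, chromosome 1, 104768529 to 104995481, plus strand) was at 5.25, 5.55 and 5.20 FPKM across the WT mice and 3.34, 3.08 and 3.25 FPKM across the cKO mice. Its libraries were tightly grouped on both sides. The mean fell from 5.33 ± 0.190 to 3.22 ± 0.133 FPKM, 60.4% of WT (log2 change −0.58, SE 0.0753, limma adjusted p = 0.000887).

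Cdh22 (ENSMUSG00000053166, chromosome 2, 165111507 to 165234853, minus strand), first described in pituitary and brain, was the least abundant member and fell furthest. It was at 0.882, 1.25 and 1.08 FPKM across the WT mice and 0.320, 0.200 and 0.280 FPKM across the cKO mice. The mean dropped from 1.07 ± 0.186 to 0.267 ± 0.0611 FPKM, 24.9% of WT (limma adjusted p = 0.000489). About 85, 109 and 94 reads lay behind the WT values and 28, 18 and 24 behind the cKO values. The 95% exact Poisson intervals, which cover counting error only, reached down to 67.9 reads in WT 1 and up to 40.5 reads in cKO 1, so they did not meet. On the log2(FPKM + 1) scale the change was −0.71 (SE 0.0825), while the ratio of the means gave −2.01 and limma voom on the recovered reads −1.99.

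**Figure D2:**
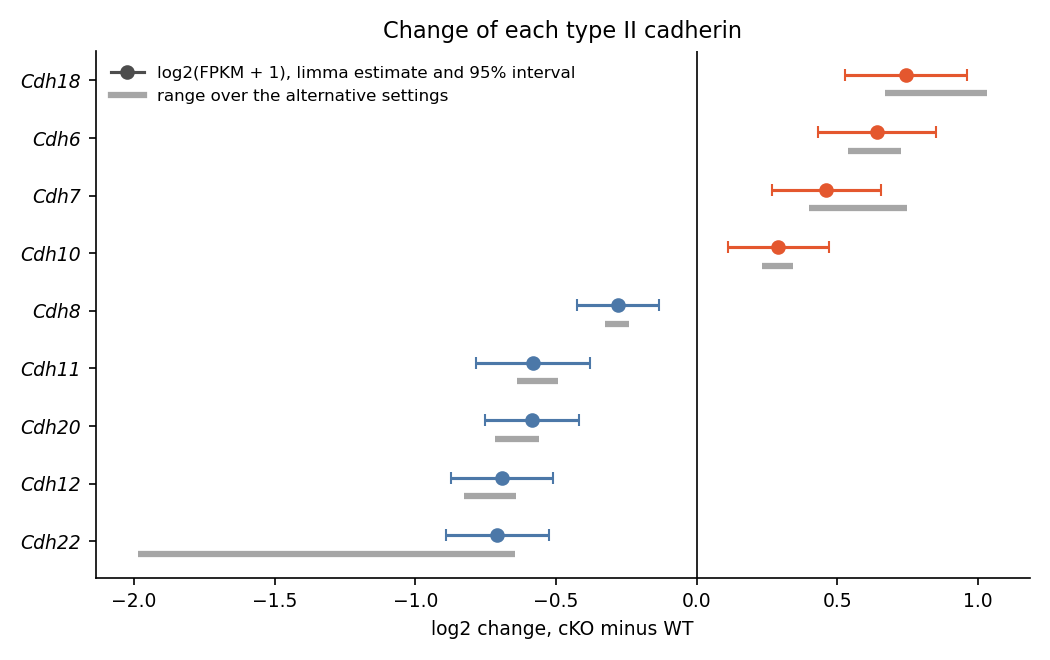
Change of each type II cadherin. The horizontal axis is the log2 change, cKO minus WT; points are limma estimates on log2(FPKM + 1) with 95% intervals (red higher, blue lower in cKO), and grey bars give the range over the alternative settings. No interval or grey bar crosses 0; the widest bar, that of Cdh22, runs from −1.99 to −0.65.

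The order of the 9 genes by level changed with genotype. In WT it was Cdh11, Cdh8, Cdh6, Cdh12, Cdh10, Cdh20, Cdh18, Cdh7 and Cdh22, from 17.1 to 1.07 FPKM, where the ranges of Cdh12 and Cdh10, and those of Cdh7 and Cdh22, overlapped. In cKO it was Cdh6, Cdh8, Cdh11, Cdh10, Cdh18, Cdh12, Cdh20, Cdh7 and Cdh22, from 15.2 to 0.267 FPKM. There the ranges of Cdh8 and Cdh11, and those of Cdh18 and Cdh12, overlapped. Cdh6 stood behind Cdh11 and Cdh8 in every WT library and ahead of them in every cKO library.

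Summed over the 9 genes, FPKM was 63.4, 63.6 and 63.5 in WT and 58.0, 58.9 and 60.5 in cKO. The WT sums lay within a narrow range above all cKO sums. The genes that fell lost 14.5 FPKM together, from 44.8 ± 0.910 to 30.3 ± 0.989, and those that rose gained 10.2 FPKM, from 18.7 ± 0.872 to 28.9 ± 1.04. The make-up moved further than the total. The 4 genes that rose held 30.8%, 29.6% and 28.0% of the sum in WT and 49.7%, 47.3% and 49.4% in cKO. Cdh6 went from 14.9% ± 2.16 to 25.8% ± 1.63 of the sum and Cdh11 from 27.0% ± 2.15 to 18.8% ± 1.83. These shares describe genes already called in each direction, so no test was made of them.

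**Figure D3:**
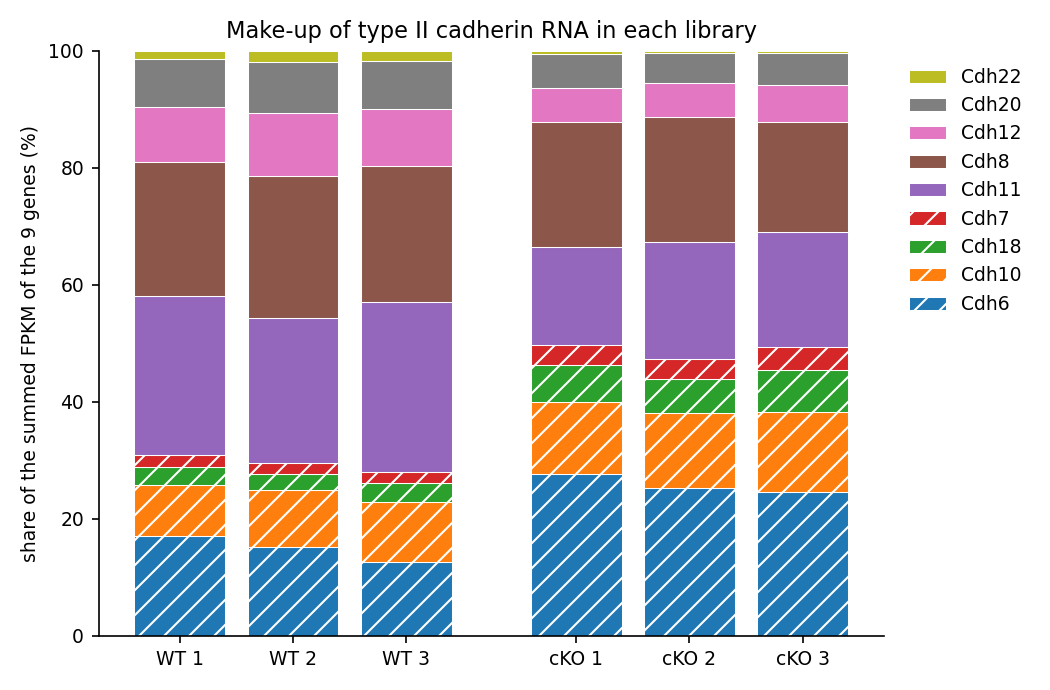
Make-up of type II cadherin RNA. Each bar is 1 library and its segments give each gene's share, in percent, of the summed FPKM of the 9 genes; hatched segments are the 4 genes that were higher in cKO. The hatched part ends between 28.0% and 30.8% in WT and between 47.3% and 49.7% in cKO.

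The genes that moved in opposite directions include neighbours on the chromosome. Cdh6, Cdh10, Cdh12 and Cdh18 lie in this order on chromosome 15, together with Cdh9, a type II cadherin known from hippocampal synapses that is outside the 9 genes. No other gene of the table lies in the gaps between these 5 genes. Along this stretch the genes rose (Cdh6), fell (Cdh9), rose (Cdh10), fell (Cdh12) and rose (Cdh18). Of these 5 calls, those of Cdh9 and Cdh10 were each lost when certain single libraries were left out: WT 1, cKO 1 or cKO 2 for Cdh9, and WT 1 or any cKO library for Cdh10. An antisense gene shares 224 bases, or 6.33%, of the Cdh9 exon length. Cdh12 and Cdh18 are separated by 0.959 Mb. Their ratio, which does not depend on how libraries are scaled, was 3.20, 4.07 and 3.02 in WT and 0.937, 0.989 and 0.878 in cKO, so Cdh12 was the higher of the pair in every WT library and the lower in every cKO library.

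On chromosome 1, Cdh20 and Cdh7 lie 4.99 Mb apart with 10 listed genes between them. The ratio of Cdh20 to Cdh7 was 4.06, 4.30 and 4.28 in WT and 1.67, 1.55 and 1.35 in cKO. Cdh20 remained the higher of the pair in all 6 libraries, by a smaller margin in cKO.

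**Figure D4:**
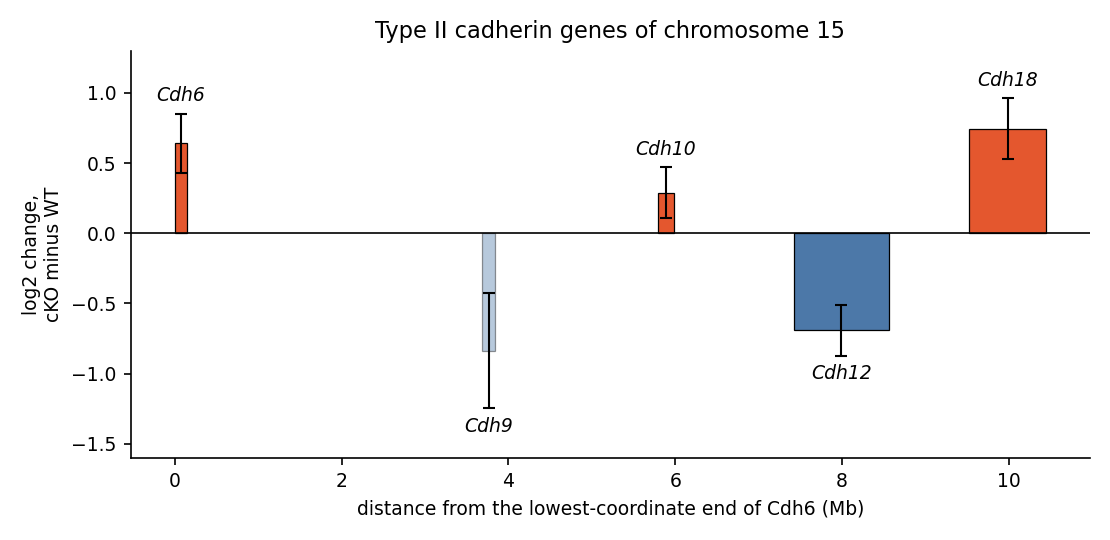
Type II cadherin genes along chromosome 15. The horizontal axis is the distance in Mb from the lowest-coordinate end of Cdh6, each bar spans a gene (at least 0.15 Mb wide), its height is the log2 change on the log2(FPKM + 1) scale, cKO minus WT, and whiskers are 95% limma intervals; Cdh9, drawn pale, is outside the 9 genes. Red bars (Cdh6, Cdh10, Cdh18) point up and blue bars (Cdh9, Cdh12) point down, in turn; the calls of Cdh9 and Cdh10 were lost when certain single libraries were left out.

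Of the other type II genes, Cdh9, Cdh24 and the divergent Cdh5 were listed. Cdh9 fell from 5.30 ± 1.80 to 2.44 ± 0.421 FPKM (limma adjusted p = 0.0140), with 5.18, 3.56 and 7.16 FPKM across the WT mice and 2.06, 2.38 and 2.90 FPKM across the cKO mice. Its WT libraries varied widely, and the call was lost without WT 1, cKO 1 or cKO 2 (limma adjusted p of up to 0.0608). Cdh24 rose from 5.41 ± 0.529 to 7.74 ± 0.765 FPKM (limma adjusted p = 0.00994). Cdh5, the cadherin of endothelial junctions, did not pass, at 3.12 ± 0.140 and 3.01 ± 0.174 FPKM (limma adjusted p = 0.766). In terms of binding groups, Cdh24 thus rose where Cdh8 and Cdh11 fell, and Cdh9 fell where Cdh6 and Cdh10 rose.

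Of 7 listed genes among the type I and other cadherins, 2 rose, 1 fell and 4 did not pass. Cdh4, the type I R-cadherin, rose from 12.04 ± 0.465 to 15.6 ± 0.486 FPKM (limma adjusted p = 0.00572). Cdh2, or N-cadherin, the most abundant cadherin of this list, did not pass, with means of 54.6 ± 3.50 FPKM in WT and 59.6 ± 2.86 FPKM in cKO (limma adjusted p = 0.232). Cdh15 rose and Cdhr1 fell, each at a mean under 1 FPKM, and Cdh15 lost its call without WT 1, WT 3, cKO 1 or cKO 2 (limma adjusted p of up to 0.120). The median log2 change of the list was 0.03, against −0.28 for the 9 type II members and 0.0017 for all genes. With 4 members higher and 5 lower, the −0.28 is the value of Cdh8 and does not describe a common fall. In the list, 4 of the 7 genes had a mean under 1 FPKM, where the log2(FPKM + 1) scale shrinks changes. Whether the families differ was not tested.

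Most genes that act on the cadherin tail or its turnover did not pass. Of 10 listed catenins and armadillo partners, 2 rose and none fell. Pkp4, a relative of p120-catenin, rose from 17.1 ± 1.52 to 21.3 ± 0.348 FPKM (limma adjusted p = 0.0185). Ctnnd2, the neural delta-catenin, rose from 50.2 ± 5.15 to 60.8 ± 2.54 FPKM (limma adjusted p = 0.0408). Neither call was firm. That of Pkp4 was lost without WT 1, cKO 1 or cKO 2 (limma adjusted p of up to 0.0696), and that of Ctnnd2 when any library except WT 1 was left out (limma adjusted p of up to 0.127) and with the exon length correction or with neither trend nor robust moderation (up to 0.0622). Ctnnb1, or beta-catenin, was at 113 ± 1.70 and 118 ± 5.69 FPKM, and Ctnna2, the neural alpha-catenin, at 40.7 ± 1.24 and 40.0 ± 0.495 FPKM, and neither passed (limma adjusted p = 0.547 and 0.782). The median log2 change of this list was 0.10.

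Of 18 listed junction and actin linkers, 4 fell, 1 rose and 13 did not pass (median log2 change −0.016). Nectin3, an immunoglobulin-type adhesion molecule that works beside cadherins, fell from 6.20 ± 0.225 to 3.34 ± 0.0738 FPKM. Its limma adjusted p was 0.000192, and the call held without each library. Vcl, or vinculin, fell from 3.16 ± 0.381 to 2.15 ± 0.224 FPKM, with a limma adjusted p of 0.0224. Also called were Nectin4, lower at a mean under 1 FPKM, and Lima1, an actin-binding gene, higher. Vcl lost its call without WT 1, cKO 1 or cKO 3 (limma adjusted p of up to 0.0910). Nectin4 and Lima1 lost theirs when any library except WT 2 was left out (limma adjusted p of up to 0.108 and 0.129), and Nectin4 also with neither trend nor robust moderation (limma adjusted p = 0.0572).

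Of 12 proteases that process or shed cadherins, only Pcsk6, a proprotein convertase at 0.874 ± 0.0716 and 0.469 ± 0.0951 FPKM, was called (lower, limma adjusted p = 0.0117), a call lost without cKO 2 (limma adjusted p = 0.0553). Furin and Adam10 did not pass (limma adjusted p = 0.0920 and 0.960). Of 13 kinases, phosphatases and trafficking genes, Ptprk, a receptor phosphatase of cell contacts, was called (lower, limma adjusted p = 0.00163), going from 43.6 ± 0.132 to 31.8 ± 2.10 FPKM, and the other 12 did not pass. The median log2 changes of these lists were −0.0077 and 0.040.

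**Figure D5:**
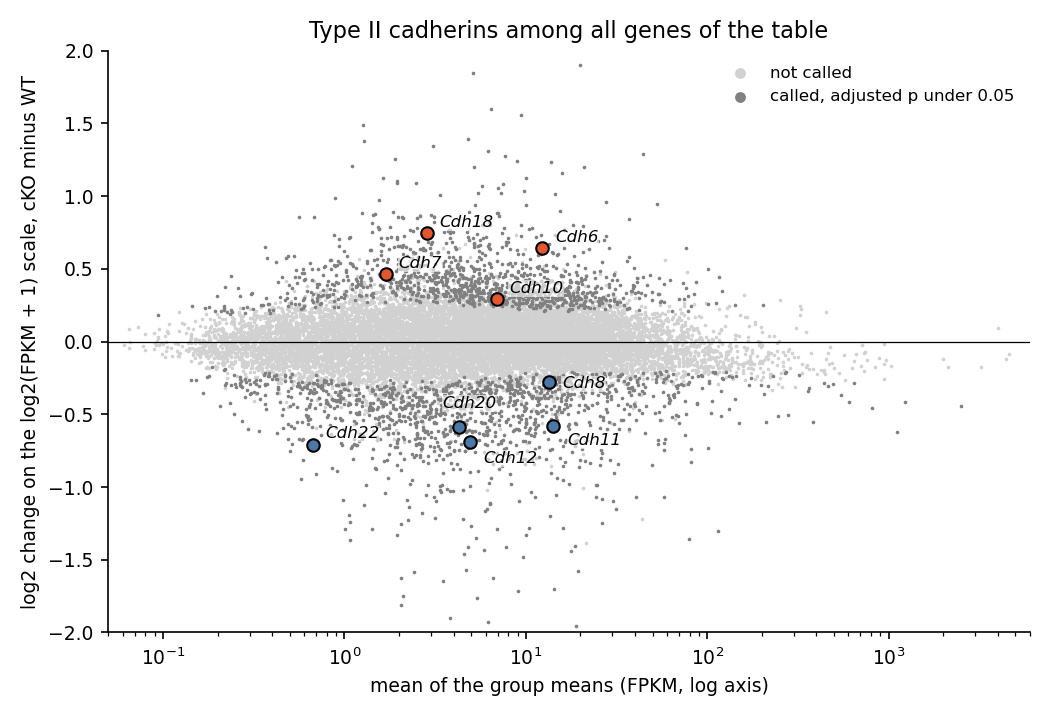
Type II cadherins among all genes of the table. Each point is a gene, placed by the mean of its group means (FPKM, log axis) and its log2 change on the log2(FPKM + 1) scale, cKO minus WT; dark grey points are called, light grey points are not, and the 9 members are drawn large (red higher, blue lower). Cdh8 and Cdh10 lie near the inner edge of the called genes, and 13 genes fall outside the plotted area.

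Genes whose levels over the 6 libraries were most like those of a member were found by Pearson correlation of log2(FPKM + 1) among 11748 genes with a mean of at least 1 FPKM and a symbol. For Cdh22 they were Tiam2 (r = 0.995), Rbms1 (r = 0.994) and Arhgap29 (r = 0.993). Tiam2, an exchange factor for Rac, was at 35.4, 41.8 and 37.5 FPKM across the WT mice and 24.5, 23.2 and 23.0 FPKM across the cKO mice. For Cdh18 they were a row to which the table gives a pair of symbols, 1700094D03Rik and 4933434E20Rik (r = 0.996), the netrin receptor gene Unc5c (r = 0.994) and the adaptor gene Sla (r = 0.994). With 3 libraries a group such values follow the genotype difference, and 175 genes for Cdh22 and 144 for Cdh18 had an r above 0.95.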

How the data were processed

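The authors deposited FPKM values per gene, named as such per the file headers, for 6 libraries. Per the submitters' processing notes, bcl2fastq 1.8.4, STAR 2.5.4b with build mm10, featureCounts 1.6.1, R 3.4.1 and DESeq2 1.22.1 were used. Annotation release, strand setting and low-gene filter were not given in the sources used here. After 139 blank lines were left out, 15661 of 15703 genes matched GENCODE M21 (mm10) by identifier. Reads were recovered as FPKM times exon length times a library size of 23.2 to 26.1 M (1000000 reads), at which 94.8% to 96.0% of values of at most 50 reads, in the 1292 to 1506 genes tested per library (exon length under 3000 bases), lay within 0.1 of a whole read. They served for depth, counting intervals and 1 alternative (limma voom). Median-of-ratios factors were 1.00 in each library, so the FPKM values were already on a common scale.

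limma 3.58.1 in R 4.3.3 was fitted to log2(FPKM + 1) of all genes, with genotype as the only term, a mean-variance trend and robust moderation. No filter was applied. The fit was also run on simulated data with independent normal noise for each gene. Those data held no library-wide or sex effect, so the run lends no support to calls that such effects could change. 8 of the 9 members had a mean of at least 1 FPKM. The members and lists were chosen with earlier results of these data known. Named genes were all members, up to 4 called genes per list and direction (otherwise up to 2 not called), Tcf4, and the 3 genes most correlated with the member of smallest p in each direction. Cdh2, Ctnnb1, Ctnna2, Furin and Adam10, the genes named from the cell type marker lists, and Xist and Ddx3y were added after their values were seen. The pairs of genes whose ratios are given were also chosen after their values were seen. 1 called gene of the junction and actin linkers is counted but not reported here. Alternatives are given in the closing section. Tables were made with Python 3.11.15.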

Additional observations from a re-analysis of the deposited data

How the results depend on the processing

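Directions of the 9 type II cadherins were the same in all 116 values computed under 13 alternatives (another pseudocount of 0.1, a filter at 1 FPKM, which removes Cdh22, median-of-ratios scaling, a fit with neither trend nor robust moderation, a replicate block, exon length correction, voom on recovered reads, and leaving out each library). Of these values, 108 kept their call and 8 lost it, 3 of Cdh8 and 5 of Cdh10. The shared direction is no separate evidence for a change. Because WT and cKO libraries did not overlap in any of the 9 genes, leaving out 1 library could not reverse a direction. The filter, the block and the fit with neither trend nor robust moderation leave the estimates as they were. The scaling factors hardly differed between libraries. Leaving out 1 library gave 3 to 4 members called higher and 4 to 5 called lower. Over all genes it gave 544 to 1572 called higher and 830 to 1517 called lower, the fewest without WT 1 (544 and 830), cKO 1 (566 and 830) or cKO 2 (578 and 839), and the most higher calls without WT 2 (1572 and 1517). The cause was not tested. Replicate numbers are shared between the groups, but same-numbered libraries did not deviate together (correlations −0.043, 0.11 and −0.038), so they were not treated as pairs. With the replicate number as a block, 4 members were called higher and 5 lower, and 1274 and 1541 genes in all. Depth limits Cdh22 most, with 18 to 28 reads in cKO.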
